A study of Mus musculus with 6 samples.

Results

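Pde4d, Plk2, Gpbp1, Mier3, Setd9, Map3k1, Ankrd55 and Il6st are neighbours on mouse chromosome 13. Rows of the expression table were taken by gene name, with the record of the highest mean where a name repeats. This gave 7 of the 8 named genes, out of 55413 gene IDs, and all 7 had a mean of at least 1 FPKM (fragments scaled to gene length and library size) in a group, as did 12528 genes in all. Setd9 was not analysed here, and the row named Setd9-ps, annotated as a unitary pseudogene, was listed at 0 in all 6 libraries. Plk2, Gpbp1, Mier3, Map3k1 and Ankrd55 were chosen by their FPKM, because their RNA was lower together in the libraries labelled FHL3-KO than in those labelled WT, and Pde4d and Il6st were added as the genes on either side. The FPKM of these 6 libraries thus chose the members, and their differences are given as a description without a test.

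The RNA came from C2C12, a line of mouse muscle precursor cells whose myoblasts fuse to myotubes in low serum. There were 3 libraries labelled FHL3-KO (genotype KO) and 3 labelled WT, all from day 4 after a change of medium to 2% horse serum; growth before that was in 10% fetal bovine serum. FHL3 is a LIM-domain protein of striated muscle, and the series title ties it to fast glycolytic fibres and to the transcription factor YY1. The labels name no clone, no allele and no method of knockout, nor whether each library is a culture of its own. Clone and genotype can therefore not be told apart, and the spread between libraries may be technical.

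Fhl3 RNA averaged 56.5 ± 2.8 FPKM in libraries labelled FHL3-KO and 30.51 ± 3.0 FPKM in WT (SD, n = 3 each, limma adjusted p = 0.000547), so the transcript of the targeted gene was higher where the label reads knockout. Every direction given here rests on the labels, and if they were exchanged each would turn round and the 5 low genes would be higher in the knockout. The 8 myotube markers Myod1, Myog, Des, Ckm, Myh3, Acta1, Tnnt3 and Ttn were present in all libraries and summed to 9494 to 9877 FPKM in libraries labelled FHL3-KO and to 4070 to 4505 FPKM in WT. The largest part of that sum was Acta1 (5461 FPKM in libraries labelled FHL3-KO and 1927 FPKM in WT). Des (adjusted p = 0.24) and Ttn (0.308) were not called, and Ttn was at 7.0 FPKM in libraries labelled FHL3-KO and 8.86 FPKM in WT. Of 8 markers of other cell types, Epcam, Adipoq and Col2a1 were at 0 everywhere. The summed level of all 8 was 0.147 to 0.475 FPKM in libraries labelled FHL3-KO and 0.421 to 56.8 FPKM in WT, the highest value being liver albumin (Alb, 56.0 FPKM) in WT replicate 1. That library stands apart in Alb, and ratios without it are given beside those with it. The share of these differences in the results was not tested.

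The genes code for proteins of unrelated function. PDE4D breaks down cyclic AMP and so ends signals through protein kinase A. PLK2 is a polo-like kinase, induced early after growth signals and stress and involved in centriole duplication. GPBP1, also called vasculin, binds GC-rich promoters, and MIER3 belongs to a family of corepressors that recruit histone deacetylases. MAP3K1 is an upstream kinase of the JNK pathway, ANKRD55 is an ankyrin-repeat protein reported with the intraflagellar transport machinery in human cells, and IL6ST, or gp130, is the shared signalling receptor of interleukin-6, LIF and related cytokines. As mRNA levels of neighbouring genes can follow the number of DNA copies, a stretch of genes that are low together is often set beside the level that a lost copy would leave.

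The set of promoters used here (RefSeq starts, build GRCm38.p6) has an entry for 6 of the 7 genes and none for Ankrd55. The 250 bases before the start are shown for the 4 low genes that have an entry and for Il6st, the flanking gene nearest to them. Capitals mark matches on either strand to any of 5 motifs, namely CANNTG (E-box), CCATNTT (core of the YY1 motif), TGACG (part of the cyclic AMP response element), TGANTCA (AP-1) and CCAAT (NF-Y box).
Plk2 (chr13:110394794-110395043, plus strand): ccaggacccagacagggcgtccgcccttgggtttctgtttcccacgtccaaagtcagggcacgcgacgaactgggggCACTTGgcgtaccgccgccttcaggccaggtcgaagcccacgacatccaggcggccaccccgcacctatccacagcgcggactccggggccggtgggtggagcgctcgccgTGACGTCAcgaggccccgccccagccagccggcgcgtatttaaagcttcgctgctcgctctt
Gpbp1 (chr13:111490128-111490377, minus strand): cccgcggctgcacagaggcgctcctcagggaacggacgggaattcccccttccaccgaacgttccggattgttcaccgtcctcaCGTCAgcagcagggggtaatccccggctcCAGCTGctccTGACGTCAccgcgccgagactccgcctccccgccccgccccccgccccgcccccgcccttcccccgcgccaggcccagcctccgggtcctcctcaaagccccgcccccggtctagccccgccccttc
Mier3 (chr13:111685928-111686177, plus strand): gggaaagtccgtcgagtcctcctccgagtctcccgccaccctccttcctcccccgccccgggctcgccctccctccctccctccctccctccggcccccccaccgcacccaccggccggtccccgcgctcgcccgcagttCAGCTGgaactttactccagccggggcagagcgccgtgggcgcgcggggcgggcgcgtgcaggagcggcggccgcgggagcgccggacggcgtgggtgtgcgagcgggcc
Map3k1 (chr13:111808994-111809243, minus strand): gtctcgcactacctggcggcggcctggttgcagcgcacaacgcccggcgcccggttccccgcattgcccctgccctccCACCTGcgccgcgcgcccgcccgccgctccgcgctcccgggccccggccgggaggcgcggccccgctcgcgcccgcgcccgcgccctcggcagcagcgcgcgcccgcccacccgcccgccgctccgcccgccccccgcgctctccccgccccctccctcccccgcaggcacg
Il6st (chr13:112463820-112464069, plus strand): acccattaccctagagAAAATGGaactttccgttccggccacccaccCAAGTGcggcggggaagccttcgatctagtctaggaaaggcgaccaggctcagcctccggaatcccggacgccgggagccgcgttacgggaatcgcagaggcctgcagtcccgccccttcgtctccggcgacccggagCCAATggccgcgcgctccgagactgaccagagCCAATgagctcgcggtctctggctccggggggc

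The promoters of the 4 low genes that have an entry were rich in G and C, and so was that of Il6st, which is not low. The GC content was 68.4% for Plk2, 73.6% for Gpbp1, 78.4% for Mier3, 85.2% for Map3k1 and 66% for Il6st. Over the 32851 promoters of the table the median was 52.4%. Those belong to 27025 genes, tested here or not. The Pde4d entry had 38.8%. Its window, chr13:108653927-108654176, lies inside the gene as GENCODE annotates it, from chr13:108449948, so it is not the sequence before that start. The Mier3 window also lies inside its annotated gene, which starts at chr13:111680979. Each of the 6 promoters held at least 1 E-box, as did 66.2% of all promoters. Plk2 held 2 matches to TGACG and Gpbp1 held 3, in each case with a pair that overlaps on opposite strands. The other 4 promoters held none, and 17.8% of all promoters held at least 1. The YY1 core was found in Il6st alone among the 6, against 12.4% of all promoters. Il6st also held 2 NF-Y boxes, found in 33.8% of all, and no AP-1 match occurred in any of the 6 (6.75% of all). These matches describe letters in a window and do not show binding.

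Plk2 had the highest level of the 7 genes in both groups. It stood at 104.0, 113.5 and 107.2 FPKM in libraries labelled FHL3-KO, against 339.4, 317.2 and 299.7 FPKM in WT. The groups were far apart, and each varied little. The means were 108.2 ± 4.8 FPKM in libraries labelled FHL3-KO and 318.8 ± 20.0 FPKM in WT (SD, n = 3 each), a ratio of 0.34. In these bulk samples fewer cells that use a gene and less RNA per cell cannot be told apart.

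Gpbp1, the promoter-binding protein, had 11.41, 13.66 and 9.42 FPKM in libraries labelled FHL3-KO, against 57.19, 52.72 and 40.86 FPKM in WT. Its means were 11.5 ± 2.1 FPKM in libraries labelled FHL3-KO and 50.26 ± 8.4 FPKM in WT, a ratio of 0.229. Gm49496, which overlaps Gpbp1 on the same strand in the annotation, was listed at 0 in all libraries, and how shared reads were counted is not stated. Mier3, the corepressor, had 3.40, 4.07 and 2.26 FPKM in libraries labelled FHL3-KO, against 17.79, 15.79 and 11.98 FPKM in WT. The mean was 3.24 ± 0.91 FPKM in libraries labelled FHL3-KO and 15.19 ± 2.9 FPKM in WT, a ratio of 0.214, close to that of Gpbp1. In both genes replicate 3 was the lowest library of each group, and the groups did not overlap.

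Map3k1, the JNK pathway kinase, was the least abundant of the 7 in WT. It had 0.334, 0.250 and 0.134 FPKM in libraries labelled FHL3-KO, against 1.72, 1.45 and 1.49 FPKM in WT, with means of 0.239 ± 0.10 FPKM in libraries labelled FHL3-KO and 1.55 ± 0.14 FPKM in WT and a ratio of 0.154. Ankrd55 was lower still in the libraries labelled FHL3-KO, with 0.173, 0.222 and 0.0759 FPKM, against 3.78, 3.74 and 3.71 FPKM in WT. Its 3 WT libraries agreed within 0.034 FPKM (SD), and the ratio of the means, 0.157 ± 0.074 FPKM in libraries labelled FHL3-KO over 3.74 FPKM in WT, was 0.0419, or 23.9-fold lower. Map3k1 and Ankrd55 reached 1 FPKM only in WT, so they could enter the comparison only by being lower in the libraries labelled FHL3-KO. Both were listed above 0 in every library.

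The genes on either side overlapped between the groups. Pde4d, the cyclic AMP phosphodiesterase, had 3.59, 3.77 and 3.61 FPKM in libraries labelled FHL3-KO, against 4.65, 3.76 and 3.47 FPKM in WT. Its ratio was 0.923, and 1.01 without WT replicate 1. Il6st had 17.09, 20.87 and 17.23 FPKM in libraries labelled FHL3-KO, against 17.9, 15.66 and 13.88 FPKM in WT. That ratio was 1.16, and 1.25 without WT replicate 1. In order of level, Il6st came right after Plk2 in the libraries labelled FHL3-KO, and after Plk2 and Gpbp1 in WT. There, Il6st (mean 18.4 ± 2.1 FPKM) stood above Gpbp1 in every library, whereas in WT (15.81 ± 2.0 FPKM) it stood below Gpbp1 and overlapped Mier3.

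**Figure D1:**
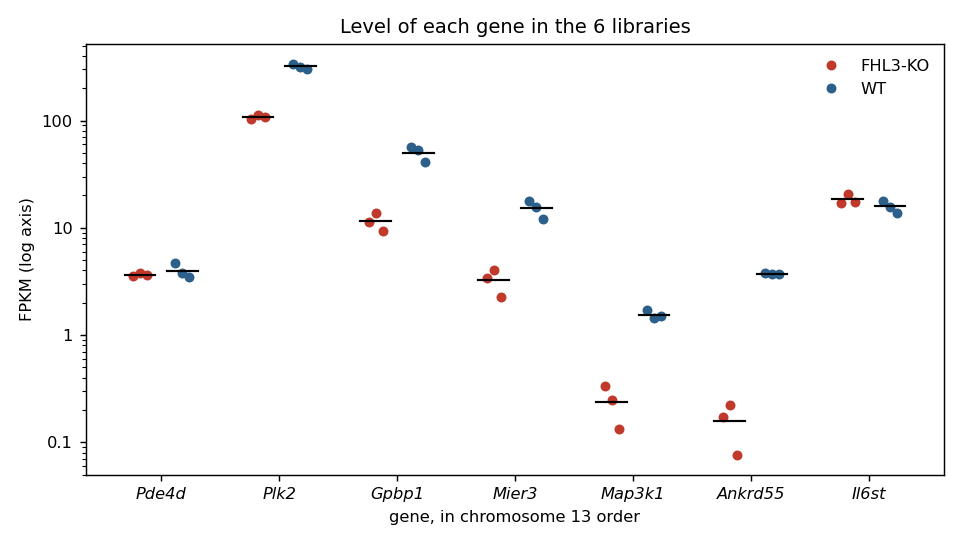
FPKM of the 7 genes on a log axis, in chromosome order, with a point for each library (red, labelled FHL3-KO; blue, WT) and a line at each group mean (n = 3 each). Plk2, Gpbp1, Mier3, Map3k1 and Ankrd55 have all 3 red points below all 3 blue points, while Pde4d and Il6st overlap.

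Read against all genes, 5 of the 7 were called lower with limma (adjusted p at most 0.05), where 21.2% of the 12528 genes tested were called lower and 40.8% were called in either direction. Since the 5 were chosen for being lower, this count carries no weight of its own. Every library labelled FHL3-KO was below every WT library for 5 of the 7, and for 26.9% of all genes tested. The median log2 change over the 7 was -1.55, against -0.01 over all genes. The scale is log2(FPKM + 1), on which low genes differ by less than their ratios. On this scale Map3k1 stood at -1.04 and Gpbp1 at -2.04, although Map3k1 had the lower ratio of FPKM. Plk2 stood at -1.55, Mier3 at -1.94 and Ankrd55 at -2.04, and the genes on either side at -0.08 (Pde4d) and 0.21 (Il6st). With a pseudocount of 0.1 in place of 1, Map3k1 was at -2.33 and Ankrd55 at -3.95.

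The size of the reduction was set beside what the loss of a DNA copy would leave if RNA followed DNA, namely 0.5 of the level when 1 of 2 copies is lost, 0.667 for 1 of 3 and 0.75 for 1 of 4. No source used here gives the number of copies in these cells, and no DNA was measured. All 5 low genes had ratios below all 3 of these values. The loss of more than 1 copy would leave lower values, which were not marked, and loss of copies was not tested. For each of the 5, all 9 ratios of a single library labelled FHL3-KO to a single WT library were below 0.5, which was so for 2.8% of all genes tested. A mean ratio of at most 0.5 was found in 8.8% of all genes. The 5 genes were selected on these same libraries, and Map3k1 and Ankrd55 entered through WT alone, so nothing is read from these shares. The gene nearest to 0.5 was Plk2, whose 9 ratios ran from 0.307 to 0.379.

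The reduction was not the same for the 5 genes. In chromosome order the ratio of the means was 0.34 for Plk2, 0.229 for Gpbp1, 0.214 for Mier3, 0.154 for Map3k1 and 0.0419 for Ankrd55, and the pseudogene Gm10736, which lies between Gpbp1 and Mier3, stood outside that order at 0.336. The single-library ratios ran from 0.165 to 0.334 for Gpbp1, from 0.127 to 0.34 for Mier3 and from 0.0778 to 0.231 for Map3k1, so these 3 genes are not told apart by this spread. Those of Plk2 and Map3k1 did not overlap. The 9 ratios of Ankrd55, from 0.0201 to 0.0599, were below those of each of the other genes. No single ratio therefore lay within the ranges of all 5 genes. The 9 ratios of a gene reuse the same 6 libraries and are not independent. Those of Map3k1 and Ankrd55 rest on levels below 1 FPKM in the libraries labelled FHL3-KO, with unknown numbers of fragments. Why the ratios differ was not tested. Without WT replicate 1 the ratios were 0.351 for Plk2, 0.246 for Gpbp1, 0.234 for Mier3, 0.163 for Map3k1 and 0.0421 for Ankrd55. With trends of exon length and GC content taken out of each library, Gpbp1 (0.282) and Mier3 (0.278) moved most, and all 5 stayed below 0.5 in each of the 10 settings.

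**Figure D2:**
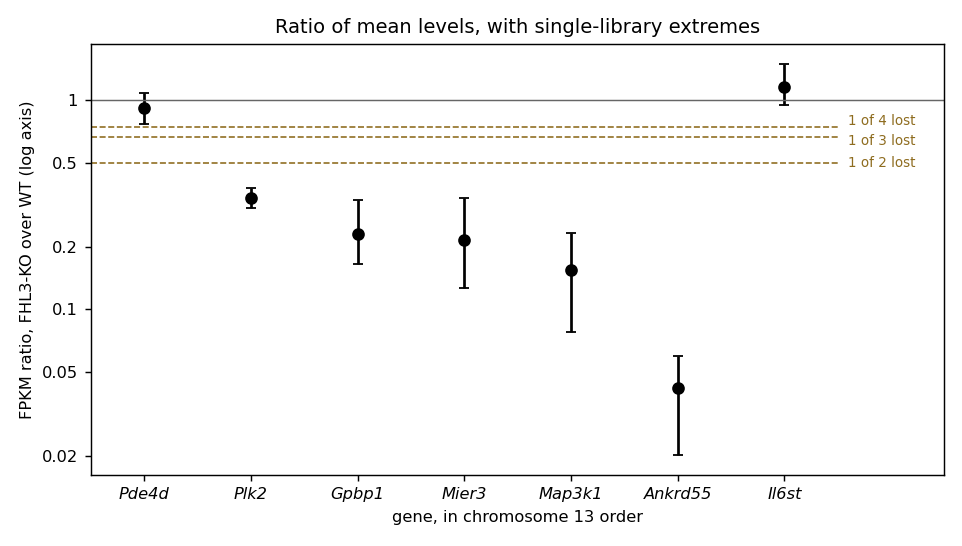
Ratio of mean FPKM, libraries labelled FHL3-KO over WT, on a log axis, with bars from the lowest to the highest of the 9 single-library ratios. Dashed lines mark 0.5, 0.667 and 0.75, the level left after 1 of 2, 3 or 4 copies is lost. Plk2, Gpbp1, Mier3, Map3k1 and Ankrd55 lie below all 3 lines, and Pde4d and Il6st near 1.

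Within a group most of the genes had the same highest library. WT replicate 1 was the highest WT library for 7 of the 7 genes, the flanking Pde4d and Il6st among them, and WT replicate 3 the lowest for 6. Among the libraries labelled FHL3-KO, replicate 2 was the highest for 6 of the 7. The lowest was split, with replicate 3 lowest for 4 of the 7, all among the 5 low genes, and replicate 1 for 3. In replicate 3 labelled FHL3-KO, Mier3 stood at 69.8%, Map3k1 at 55.8% and Ankrd55 at 48.4% of their group mean, while Plk2 stood at 99.0%, Pde4d at 98.9% and Il6st at 93.7%. The 7 values of a library share its depth and normalization. WT replicate 1 had the lowest sum of FPKM, 424987, and replicate 3 labelled FHL3-KO the highest, 494176, and the share of this in the order was not tested.

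Positions show how the low genes lie among their neighbours (GENCODE M21, build GRCm38). Pde4d spans chr13:108449948-109953461, Plk2 chr13:110395046-110400844, Gpbp1 chr13:111425680-111490111, Mier3 chr13:111680979-111718596, Map3k1 chr13:111746428-111808993, Ankrd55 chr13:112288451-112384002 and Il6st chr13:112464070-112510086. Plk2, Mier3 and Ankrd55 are on the plus strand, as are both flanks, and Gpbp1 and Map3k1 are on the minus strand. The low genes thus lie on both strands. From the start of Plk2 to the end of Ankrd55 the stretch is 1.99 Mb long. It is bounded by 0.44 Mb between Pde4d and Plk2 and by 80 kb between Ankrd55 and Il6st. Most of its length holds no tested gene, with gaps of 1.02 Mb between Plk2 and Gpbp1 and 0.48 Mb between Map3k1 and Ankrd55.

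Between Plk2 and Ankrd55 the table has 38 rows, and 6 of them reached 1 FPKM in a group. These were the 5 low genes and Gm10736, a processed pseudogene of 78 bases between Gpbp1 and Mier3, and 6 of 6 were called lower, against 21.2% of all genes. As 5 of the 6 had been picked for being lower, nothing is read from this count. Gm10736 had 6.70, 4.42 and 38.79 FPKM in libraries labelled FHL3-KO, against 52.71, 53.2 and 42.84 FPKM in WT. Replicate 3 labelled FHL3-KO was close to WT, unlike the other 2. Its limma adjusted p was 0.0373 and ran from 0.000302 to 0.142 over the settings. The call ended without replicate 1 (0.12) or replicate 2 (0.0766) labelled FHL3-KO, and without WT replicate 1 (0.093), 2 (0.0984) or 3 (0.065). Such short pseudogenes can share reads with copies elsewhere, so its level is uncertain.

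The other 32 rows between Plk2 and Ankrd55 never exceeded 0.327 FPKM. Of these, 25 were at 0 in all libraries, and in the other 7 the mean was lower in the libraries labelled FHL3-KO than in WT. All 7 were close to 0. The share of such rows that are lower over the whole table was not computed, so nothing is read from this count. The antisense RNA Gm15287 was listed at 0 in all 3 libraries labelled FHL3-KO and at 0.0696, 0.192 and 0.198 FPKM in WT. The noncoding RNA 3110015C05Rik was listed at 0, 0 and 0.067 FPKM in libraries labelled FHL3-KO and at 0.0861, 0.128 and 0.22 FPKM in WT. Both are close to 0, where a single fragment weighs heavily. In the gap next to Pde4d, Rab3c reached at most 0.0207 FPKM and Gapt at most 0.0486 FPKM, so these data do not place the edge of the low stretch within that gap.

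Beyond the stretch, levels moved both ways. Inside the Pde4d gene lies the pseudogene Rps3a3, which averaged 426.6 ± 58 FPKM in libraries labelled FHL3-KO and 308.4 ± 7.6 FPKM in WT and was called higher (limma adjusted p = 0.0162). That call ended without replicate 1 labelled FHL3-KO (0.0631), without WT replicate 2 (0.0617), with quantile normalization (0.426), with FPKM scaled to the same sum (0.0504) and with no filter (0.0558). Of the 8 tested genes before Pde4d, 1 was called higher and 2 lower, with a median log2 change of 0.18, where 19.7% of all genes were called higher and 21.2% lower. The higher one was Dimt1, an rRNA methyltransferase, at 7.45 ± 1.4 FPKM in libraries labelled FHL3-KO and 4.90 ± 0.76 FPKM in WT (limma adjusted p = 0.0283). Its call held in 8 of the 14 settings and ended without replicate 1 (0.0508) or 2 (0.0545) labelled FHL3-KO, without WT replicate 2 (0.1) or 3 (0.0776), with no filter (0.0863) and with FPKM scaled to the same sum (0.0925). The 2 lower were Smim15, at 11.65 ± 1.5 FPKM in libraries labelled FHL3-KO and 19.89 ± 1.8 FPKM in WT, and the pseudogene Apoo-ps, at 1.91 ± 0.84 FPKM in libraries labelled FHL3-KO and 4.44 ± 0.45 FPKM in WT (limma adjusted p of 0.00262 and 0.00907). The genes next to Pde4d, Depdc1b and Ercc8, were not called (adjusted p of 0.0565 and 0.102), nor were Kif2a, Zswim6 and Ndufaf2, with log2 changes of 0.00, 0.35 and -0.09.

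Of the 8 tested genes after Il6st, 3 were called higher and 1 lower, with a median log2 change of 0.30, where 19.7% of all genes were called higher and 21.2% lower. Slc38a9, a lysosomal amino acid transporter, had 2.55 ± 0.36 FPKM in libraries labelled FHL3-KO and 2.97 ± 0.41 FPKM in WT, and was not called. Plpp1, a lipid phosphatase, rose to 75.2 ± 3.9 FPKM in libraries labelled FHL3-KO, against 57.24 ± 5.9 FPKM in WT (limma adjusted p = 0.015, or 0.0505 with quantile normalization). Hspb3, a small heat shock protein of muscle, rose to 6.42 ± 1.3 FPKM in libraries labelled FHL3-KO, against 2.37 ± 0.30 FPKM in WT (limma adjusted p = 0.00171). Mtrex, an RNA helicase of the nuclear exosome, fell to 10.12 ± 1.3 FPKM in libraries labelled FHL3-KO, against 14.33 ± 1.5 FPKM in WT (limma adjusted p = 0.0187). Its call ended without WT replicate 1 (0.0571), after the length and GC correction (0.0829) and with no filter on low values (0.0555). The other called gene was Snx18, a sorting nexin, at 60.3 ± 6.3 FPKM in libraries labelled FHL3-KO and 44.76 ± 5.2 FPKM in WT (limma adjusted p = 0.0203). The Snx18 call held in 8 of the 14 settings and ended without replicate 1 labelled FHL3-KO (0.052), WT replicate 2 (0.077) or WT replicate 3 (0.0595), with no filter (0.0613) and under 2 other scalings (0.097 and 0.107). Gm3226, Dhx29 and Gpx8, with log2 changes of 0.39, 0.04 and 0.20, were not called.

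**Figure D3:**
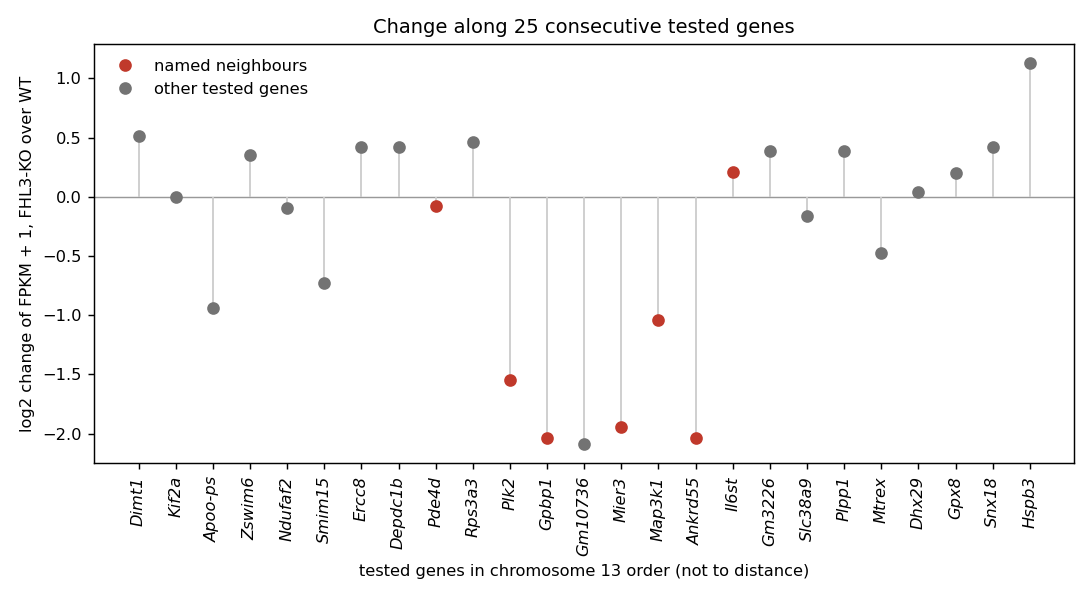
Log2 change of FPKM + 1, libraries labelled FHL3-KO over WT, for 25 tested genes in chromosome 13 order, evenly spaced. The 6 genes from Plk2 to Ankrd55 lie between -2.09 and -1.04, and the other 19 between -0.94 and 1.13.

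Of the 477 tested genes of chromosome 13, 21.6% were called lower and 24.7% higher, against 21.2% and 19.7% of all genes. Of the 468 outside the stretch from Pde4d to Il6st, 20.7% were called lower, against 21.2% of all genes, and 9.62% had a mean ratio of at most 0.5, against 8.8%. Their median log2 change was 0.01. Across all chromosomes, 4 runs of neighbouring tested genes with a mean ratio of at most 0.5 had 6 genes each, and none was longer. The run from Plk2 to Ankrd55 was the longest of the 4 in bases, its gaps without a tested gene included, with a median ratio of 0.221. As 5 of its 6 genes had been picked for being lower in these libraries, nothing is read from its place among the runs. Map3k1 and Ankrd55 were tested through WT alone, and the level of Gm10736 is uncertain. A run on chromosome 10 (Zfp433 to Gm4924, 0.72 Mb) and a run on chromosome 17 (Gm10226 to Zfp943, 0.38 Mb) hold several zinc finger genes. In a run on chromosome 12, over 0.9 Mb, only 1 of the 6 genes was called lower, the median ratio was 0 and 5 genes are of the Serpina family. How far that run rests on WT replicate 1, the library that stands apart in Alb, was not tested.

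**Figure D4:**
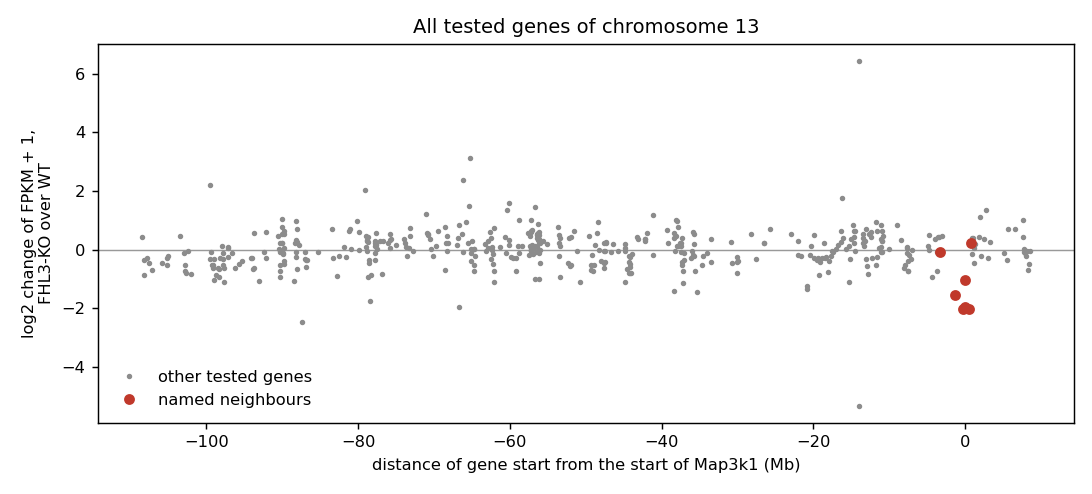
Log2 change of FPKM + 1, libraries labelled FHL3-KO over WT, of all 477 tested genes of chromosome 13 against the distance of the gene start from that of Map3k1. Plk2, Gpbp1, Mier3, Map3k1 and Ankrd55 lie together below -1, while the genes around them spread about 0.

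Close relatives of the low genes lie on other chromosomes and were read from the same fit. Of the polo-like kinases, Plk1, which drives mitosis, rose to 23.83 ± 2.5 FPKM in libraries labelled FHL3-KO, against 16.42 ± 1.4 FPKM in WT (limma adjusted p = 0.00765). Plk4, which starts centriole duplication, fell to 4.08 ± 0.59 FPKM in libraries labelled FHL3-KO, against 7.41 ± 1.0 FPKM in WT (limma adjusted p = 0.00502). Plk3 stood at 9.64 ± 0.56 FPKM in libraries labelled FHL3-KO and 9.74 ± 0.31 FPKM in WT (adjusted p = 0.91), and Plk5 was near 0. Gpbp1l1, the relative of Gpbp1, had 14.48 ± 1.5 FPKM in libraries labelled FHL3-KO and 13.46 ± 1.7 FPKM in WT (adjusted p = 0.521). In WT it was thus below Gpbp1 per length, and in the libraries labelled FHL3-KO it was above.

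Mier1 fell to 5.44 ± 1.1 FPKM in libraries labelled FHL3-KO, against 9.11 ± 1.4 FPKM in WT (limma adjusted p = 0.014), a call that ended after the length and GC correction (0.0985) and with no filter (0.0536). Mier2, the most abundant of that family, stood at 25.48 ± 2.6 FPKM in libraries labelled FHL3-KO and 26.32 ± 0.54 FPKM in WT (adjusted p = 0.686). Pde4b was at 3.89 ± 0.40 FPKM in libraries labelled FHL3-KO and 5.63 ± 0.98 FPKM in WT. Its call (limma adjusted p = 0.0398) ended in 7 of the 14 settings, among them those without replicate 1 (0.118) or 3 (0.102) labelled FHL3-KO and without WT replicate 1 (0.115) or 2 (0.126). Pde4a and Pde4c did not reach 1 FPKM.

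**Figure D5:**
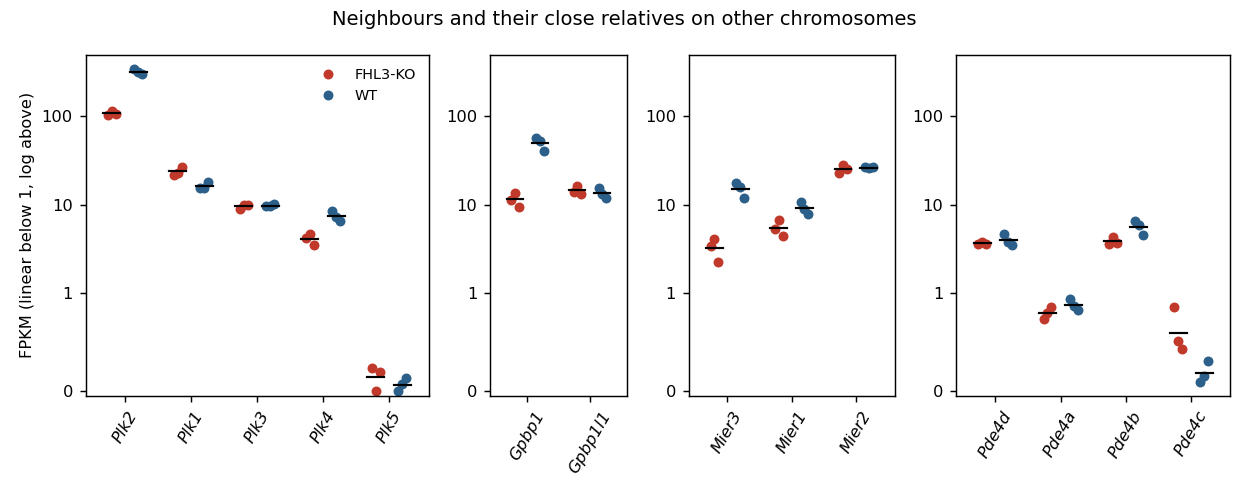
FPKM of Plk2, Gpbp1, Mier3 and Pde4d (leftmost in each panel) and of their relatives, linear below 1 and logarithmic above, with a point for each library (red, labelled FHL3-KO; blue, WT) and lines at the group means (n = 3 each). The gaps between red and blue are widest for Plk2, Gpbp1 and Mier3, while Plk3, Gpbp1l1 and Mier2 overlap.

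Partners of the genes were read from lists of known pathway members. Of 15 tested genes of the MAP3K1 and JNK pathway, 2 were called higher and 1 lower, with a median log2 change of -0.07, where 40.8% of all genes were called in either direction. Map3k2, a related upstream kinase, fell to 4.02 ± 1.5 FPKM in libraries labelled FHL3-KO, against 8.98 ± 1.8 FPKM in WT (limma adjusted p = 0.00935). The adaptor Traf2 rose to 18.81 ± 2.9 FPKM in libraries labelled FHL3-KO, against 12.45 ± 0.64 FPKM in WT (limma adjusted p = 0.00859), and Map2k1 to 47.05 ± 1.6 FPKM in libraries labelled FHL3-KO, against 37.18 ± 1.0 FPKM in WT (limma adjusted p = 0.00895, or 0.059 with FPKM scaled to the same sum). The JNK kinases Mapk8 (10.1 ± 1.2 FPKM in libraries labelled FHL3-KO and 10.76 ± 1.5 FPKM in WT) and Mapk9 (8.95 ± 1.1 FPKM in libraries labelled FHL3-KO and 10.5 ± 2.4 FPKM in WT) were not called. Their target Jun had 70.1 ± 1.6 FPKM in libraries labelled FHL3-KO and 76.73 ± 1.7 FPKM in WT (limma adjusted p = 0.166).

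Around gp130, 2 of 15 tested genes were called higher and 5 lower, with a median log2 change of -0.22, where 19.7% of all genes were called higher and 21.2% lower. The call of Socs3 (lower, adjusted p up to 0.165) and that of Clcf1 (higher, up to 0.138) each held in only 7 of the 14 settings. The LIF receptor Lifr, which pairs with gp130, fell to 2.37 ± 0.36 FPKM in libraries labelled FHL3-KO, against 6.88 ± 1.1 FPKM in WT (limma adjusted p = 0.000818). The kinase Jak2 fell to 2.04 ± 0.044 FPKM in libraries labelled FHL3-KO, against 5.45 ± 0.96 FPKM in WT (limma adjusted p = 0.000946), and the oncostatin M receptor Osmr to 0.732 ± 0.25 FPKM in libraries labelled FHL3-KO, against 2.77 ± 0.53 FPKM in WT (limma adjusted p = 0.00181). Osmr reached 1 FPKM only in WT, so it could enter the comparison only by being lower. The ligand Ctf1, cardiotrophin-1, rose to 5.33 ± 0.84 FPKM in libraries labelled FHL3-KO, against 1.61 ± 0.030 FPKM in WT (limma adjusted p = 0.000454). Stat3, the main transcription factor downstream, stood at 32.31 ± 1.8 FPKM in libraries labelled FHL3-KO and 34.11 ± 0.48 FPKM in WT (adjusted p = 0.433).

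Among 11 tested genes of cyclic AMP breakdown and response, 2 were called higher and 5 lower, with a median of -0.18, against 19.7% and 21.2% of all genes. Of the 5 lower calls, that of Pde7a held in 7 of the 14 settings, that of Adcy9 in 9, that of Pde3b (which reached 1 FPKM only in WT) in 11 and that of Creb1 in 13. Prkaca, the catalytic subunit of protein kinase A, rose to 130.7 ± 4.6 FPKM in libraries labelled FHL3-KO, against 58.76 ± 4.2 FPKM in WT (limma adjusted p = 0.000115). The regulatory subunit Prkar2a fell to 14.19 ± 1.7 FPKM in libraries labelled FHL3-KO, against 35.89 ± 4.5 FPKM in WT (limma adjusted p = 0.000345), while Prkar1a was higher, at 353.7 ± 9.8 FPKM in libraries labelled FHL3-KO and 259.5 ± 6.3 FPKM in WT (limma adjusted p = 0.0038, or 0.244 with quantile normalization). Of 14 tested subunits of the intraflagellar transport B complex, 0 were called higher and 5 lower, against 19.7% of all genes called higher and 21.2% lower, with a median of -0.16. Ift74 fell to 5.48 ± 1.0 FPKM in libraries labelled FHL3-KO, against 15.48 ± 1.9 FPKM in WT (limma adjusted p = 0.000519). Ift80 fell to 3.77 ± 0.63 FPKM in libraries labelled FHL3-KO, against 7.83 ± 1.3 FPKM in WT (limma adjusted p = 0.00353), and Ift81 to 4.78 ± 0.70 FPKM in libraries labelled FHL3-KO, against 9.70 ± 2.3 FPKM in WT (limma adjusted p = 0.00551). The calls of the other 2, Ift88 and Ift57, held in 8 and 10 of the 14 settings. Of 3 tested deacetylase partners of MIER proteins, Hdac2 was lower (56.05 ± 3.2 FPKM in libraries labelled FHL3-KO and 73.31 ± 7.4 FPKM in WT, limma adjusted p = 0.0163), a call that ended without replicate 1 (0.0595) or 3 (0.0506) labelled FHL3-KO and after the length and GC correction (0.307). Hdac1 was at 24.91 ± 0.93 FPKM in libraries labelled FHL3-KO and 22.16 ± 0.12 FPKM in WT (adjusted p = 0.11). Cdyl was at 5.28 ± 0.76 FPKM in libraries labelled FHL3-KO and 4.35 ± 0.39 FPKM in WT (adjusted p = 0.176).

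Likeness of pattern was measured over the 6 libraries, as the Euclidean distance of a gene's centred log2(FPKM + 1) values from the average of the 5 low genes. With the members left out, the 5 genes with the smallest distance, among those with at least 5 FPKM in a group, were on other chromosomes. They were Hsp90aa1, a heat shock chaperone on chromosome 12 (distance 0.137), Fam111a on chromosome 19 (0.184), the lipoprotein lipase Lpl on chromosome 8 (0.201), the matrix protein Fbln2 on chromosome 6 (0.226) and the myogenic factor Myf5 on chromosome 10 (0.236). Their log2 changes ran from -1.86 to -1.62. The distance counts this difference between the groups, so nearness can come from a like log2 change alone. Hsp90aa1 had 89.89, 96.82 and 73.17 FPKM in libraries labelled FHL3-KO, against 340.8, 293.0 and 258.8 FPKM in WT. The low genes themselves lay at 0.293 (Plk2), 0.409 (Mier3), 0.435 (Ankrd55), 0.442 (Gpbp1) and 0.854 (Map3k1), and Pde4d and Il6st at 2.02 and 2.37. All of these values share the same 6 libraries. The average was made from the 5 picked genes, so the larger distances of Pde4d and Il6st follow from the choice of members. Map3k1 and Ankrd55 themselves did not reach the 5 FPKM asked of the likest genes. The added 1 FPKM shrinks the difference of a gene as low as Map3k1, so its distance is not read as a different pattern.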

How the data were processed

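The deposited table names no unit; its values were read as FPKM made by the authors, from their sums and low steps. Column sums ran from 424987 to 494176. Short genes shared a lowest common value; if that is 1 fragment, relative depths were 0.862 to 1, but fragment totals are unknown, so intervals of counting error cannot be had. The submitters' processing notes list the build mm10, HISAT2 (2.2.1), DESeq2 (1.28.1), featureCounts (2.0.1) and Trim Galore (0.6.6), without roles. Strand setting and treatment of shared reads: not given in the sources used here.

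Rows sharing a gene ID (7) were left out, and 94.1% of IDs matched GENCODE M21. The 12528 genes averaging 1 FPKM or more in either group were fitted as log2(FPKM + 1) with limma 3.58.1 in R 4.3.3 (mean-variance trend, two-sided, no covariates, Benjamini-Hochberg adjustment, threshold 0.05), after the script was tested on simulated data. Splines with 5 degrees of freedom removed length and GC trends in an alternative. Named genes were the members, all tested genes between Pde4d and Il6st, 8 on each side, relatives, the 3 list genes with the smallest p, the 5 likest genes and Fhl3; Gm49496, Osmr, Socs3, Clcf1, Creb1, Pde3b, Adcy9, Pde7a, Ift57, Ift88, Gm15287, 3110015C05Rik, Rab3c, Gapt, Stat3, Mapk8, Mapk9, Jun and runs of genes were chosen after their values were seen. Promoter motifs were searched only in the 250 bases before the start, although bases after it were planned too. Alternatives were the pseudocount, the filter, other scalings, the threshold, a replicate block and leaving out each library. Members and lists were chosen with earlier results of these data known.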

Additional observations from a re-analysis of the deposited data

How the results depend on the processing

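The same 5 genes (Plk2, Gpbp1, Mier3, Map3k1 and Ankrd55) were called lower in each of the 14 settings, Pde4d in none and Il6st in 1, as higher after the length and GC correction. The median log2 change of the 7 genes, -1.55, was -2.12 with a pseudocount of 0.1, -1.79 with quantile normalization and -1.66 with FPKM scaled to the same sum, which moved the median of all genes to -0.1. Leaving out a library gave -1.59 to -1.5. From Pde4d to Il6st 6 genes were called lower, and 5 to 6 without a library. In all, 5112 genes were called, 2695 at an adjusted p of at most 0.01 and 3272 to 5273 without a library, the lowest without WT replicate 2. Scaling to the same sum left 1686 of 4664 calls higher, against 2462 of 5112. Deviations of same-numbered libraries from their group means had correlations of -0.13, -0.06 and 0.32, and those of other pairs ran from -0.38 to 0.37. With so few libraries these values cannot decide whether the number pairs them. With the replicate number as a block, 4759 genes were called, the median was -1.55 and 6 genes of the stretch were lower. Without counts, how many fragments lie behind the low values of Map3k1 and Ankrd55 is unknown.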
